A study of Homo sapiens with 16 samples.

Results

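The 77 genes described here encode proteins of the cytosolic ribosome. They were the rows of the deposited table whose gene name has the form RPL or RPS followed by a number, with an optional A or X, or the form RPSA, RPLP0, RPLP1 or RPLP2. Of the 14857 genes listed, 46 met the rule as proteins of the large subunit (RPL) and 31 as proteins of the small subunit (RPS). The rule used names alone and no measured value, but the genes were chosen with earlier results of these data known. Genes whose names the rule does not reach, such as FAU, are given apart.

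RNA was sequenced from 16 cultures of MDA-MB-231, an established human triple-negative breast cancer line with a mesenchymal expression pattern, here carrying the tet-off system in which doxycycline turns the introduced gene off. Of the 4 stable clones, A and B (here EV_A and EV_B) held an empty vector, while E11 and H3 (here TTP_E11 and TTP_H3) held tristetraprolin (TTP), with 4 libraries per clone described as biological replicates. TTP, the product of ZFP36, binds AU-rich elements in mRNAs and promotes their decay. All 4 clones grew in DMEM with fetal bovine serum at 10%, penicillin at 100 IU/mL, streptomycin at 100 µg/mL, G418 at 400 µg/mL and hygromycin B at 100 µg/mL. Only for the clones with TTP do the labels give maintenance in doxycycline, at 2 µg/mL, and the drugs were removed at least 24 h before an experiment. Each line was a stably transfected clone, so the clone and the vector it carries cannot be told apart within an arm, and the history of doxycycline goes with TTP. The comparisons ask how the ribosomal protein mRNAs differed between the TTP and EV clones, between the EV clones, and between the subunits. Since each arm had only 2 clones, a p-value here speaks of replicate cultures and leaves the variation from clone to clone unmeasured.

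Each ribosome holds 1 copy of nearly every one of these proteins, and the stalk proteins RPLP1 and RPLP2 are the known exception. The genes are spread over many chromosomes and their mRNAs are short and abundant. Most begin with a C followed by an unbroken stretch of C and T, the 5′ terminal oligopyrimidine (TOP) tract, through which mTORC1 and the RNA-binding protein LARP1 are known to regulate their translation and stability together. Free ribosomal proteins are unstable, and RPL5 and RPL11, when outside the ribosome, are known to bind MDM2.

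The start sites show this shared feature. RefSeq promoter windows (GRCh38.p14) were found for 62 of the 77 genes. The windows below run from 15 bases before the annotated start to 15 bases from it, on the strand of the gene, and capitals mark the start base with the unbroken run of C and T that begins there. A start base that is neither C nor T stands alone in capitals. The first 5 are the genes with the largest change in the weakest of the 4 pairings of a TTP clone with an EV clone. RPSA and RPLP0 are shown for their difference between the EV clones, and RPL10 for its small change in 1 such pairing. RPL15, RPL17 and RPS7 did not pass the test between TTP and EV, and RPS4X differed most between the TTP clones.
RPL22: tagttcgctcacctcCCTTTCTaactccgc
RPS27: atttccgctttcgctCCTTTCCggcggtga
RPL39: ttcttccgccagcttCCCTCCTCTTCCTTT
RPS18: cgcgtcacttccgctCTCTCTTCCacagga
RPS3A: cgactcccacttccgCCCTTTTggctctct
RPSA: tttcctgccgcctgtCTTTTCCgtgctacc
RPLP0: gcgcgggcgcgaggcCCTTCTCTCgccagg
RPL10: tttttccactctcagAaatatacgtctgtc
RPL15: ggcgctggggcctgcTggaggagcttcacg
RPL17: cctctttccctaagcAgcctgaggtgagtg
RPS7: gtttccgccctcctcCTCgcgctgtttccg
RPS4X: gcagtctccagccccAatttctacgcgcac

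These windows lie at chr1:6199581-6199610 (minus strand) for RPL22, chr1:153990747-153990776 (plus strand) for RPS27, chrX:119791616-119791645 (minus strand) for RPL39, chr6:33272060-33272089 (plus strand) for RPS18, chr4:151099613-151099642 (plus strand) for RPS3A and chr3:39406705-39406734 (plus strand) for RPSA. The remaining windows lie at chr12:120201097-120201126 (minus strand) for RPLP0, chrX:154398050-154398079 (plus strand) for RPL10, chr3:23916530-23916559 (plus strand) for RPL15, chr18:49492451-49492480 (minus strand) for RPL17, chr2:3575245-3575274 (plus strand) for RPS7 and chrX:72277234-72277263 (minus strand) for RPS4X. The first 7 windows printed have a C at the start and at least 4 further bases that are each C or T. The windows of RPL10, RPL15, RPL17 and RPS4X start with another base, and the run of RPS7 is shorter. Over all 62 matched members, 42 (67.7%) had a C at the start followed by at least 4 bases of C or T, against 1104 of 27305 promoters in the table (4.04%). The share was 25 of 38 among RPL genes and 17 of 24 among RPS genes. A match describes letters at an annotated start and not a start site measured in these cells.

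The listed genes held between 14380767 and 22066098 reads per library, and 1 size factor per library had been applied by the authors. The values below are therefore normalized counts and relative to the library. The introduced gene was checked first: ZFP36 was at normalized counts of 259 ± 26.3 in EV_A and 222 ± 8.8 in EV_B, and 10482 ± 337 in TTP_E11 and 14365 ± 811 in TTP_H3 (mean ± SD, n = 4 per clone, as throughout). Titles disagreed with the sample descriptions for 7 of the 8 TTP libraries, which were grouped by description. All 5 markers of the line that were looked for (VIM, CD44, AXL, CAV1 and SPARC) were listed, with summed levels of 98873 to 102435 in the EV libraries and 71763 to 76792 in the TTP libraries, although SPARC was low, at 33 in EV_A and 35.1 in EV_B, and 31.6 in TTP_E11 and 28.5 in TTP_H3. Of 6 genes looked for as luminal or epithelial markers, ERBB2, EPCAM and GATA3 were listed, with sums of 2483 to 3407. Of 10 markers of blood, vessel and other cells, CD68, CSF1R and WT1 were listed, with sums of 187 to 267 in EV libraries and 68.7 to 144 in TTP libraries.

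Ribosomal protein mRNAs took a larger share of the reads in the TTP clones than in the EV clones, and a larger share in EV_B than in EV_A. In EV_A the 77 genes held 4.32%, 4.42%, 4.44% and 4.48% of the reads on listed genes, with a mean of 4.42% ± 0.0689. In EV_B they held 4.81%, 4.97%, 5.10% and 5.04%, with a mean of 4.98% ± 0.124. In TTP_E11 they held 5.79%, 5.91%, 5.99% and 6.12%, with a mean of 5.95% ± 0.140, and in TTP_H3 5.67%, 5.60%, 5.995% and 5.80%, with a mean of 5.77% ± 0.174. All 8 TTP libraries lay above all 8 EV libraries, and all 4 EV_B libraries lay above all 4 EV_A libraries, while the TTP clones overlapped. The arms averaged 4.70% ± 0.315 and 5.86% ± 0.177 (SD, n = 8), a difference of 1.16 percentage points. The gap between the EV clones is thus part of the EV spread. In bulk RNA fewer cells of a kind and less RNA per cell cannot be told apart, and a share can also move through the other genes.

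Other features of the libraries moved with these shares. The share of reads on mitochondrially encoded genes was 3.56% to 3.91% in EV_A, 3.52% to 3.97% in EV_B and 4.59% to 4.63% in TTP_E11. In TTP_H3 it was 3.80%, 4.01%, 4.84% and 4.70%, so that 2 of its libraries lay in or near the EV range. The 10 genes with the most reads took 4.87% to 5.29% in the EV libraries and 4.88% to 5.78% in the TTP libraries. In 4 of 4 clones the library with the fewest reads also had the lowest share of ribosomal protein reads. In 0 of 4 clones did the library with the most reads have the highest share. The part of these features in the result was not tested. Without the mitochondrially encoded genes the difference between the arms was 1.26 points, and without the 100 genes with the most reads outside the members it was 1.33 points.

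**Figure D1:**
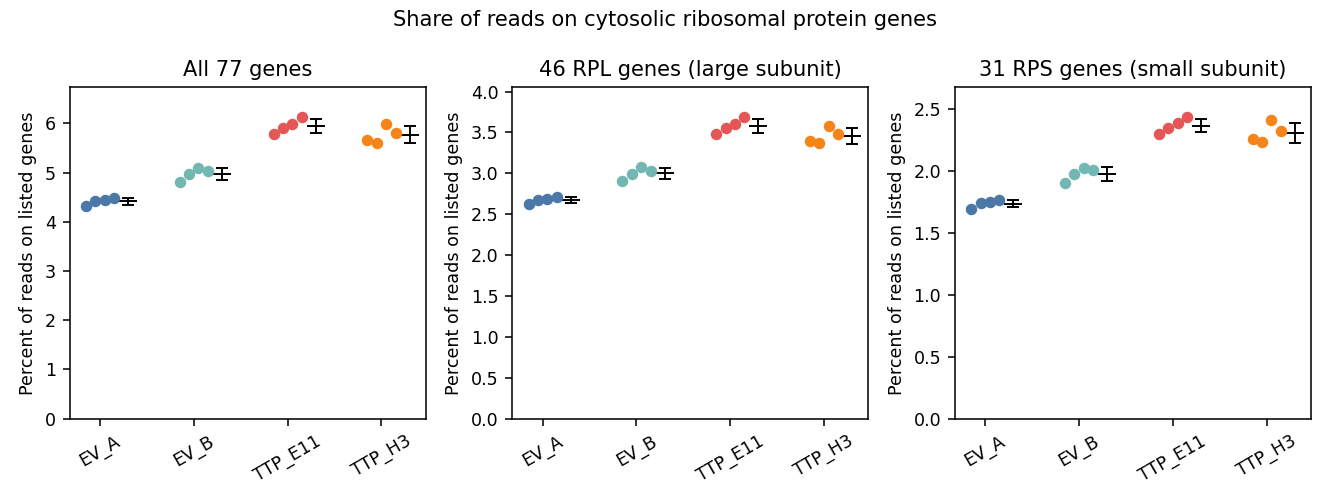
Share of the reads on listed genes (percent, vertical axis) held by all 77 ribosomal protein genes, the 46 RPL genes and the 31 RPS genes in each clone. Points are libraries and bars give the mean ± SD (n = 4). The total was between 4.32% and 4.48% in EV_A, between 4.81% and 5.10% in EV_B and between 5.60% and 6.12% in the TTP clones.

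Nearly all members were higher in the TTP clones than in the EV clones. Of 77 genes, 73 were higher, where 35.4% of all genes were called higher, and 1 was lower, where 34.6% of all genes were called lower. The median change was 0.24 on the log2 scale (18.2%), against 0.00066 over all genes. By subunit, 43 RPL genes were higher, 1 was lower (RPL23A) and 2 did not pass (RPL15 and RPL17), and 30 RPS genes were higher and 1 did not pass (RPS7). The changes were small and alike: the quartiles were 0.18 and 0.32, and the highest was 0.41 for RPL22. For 38 members every TTP library lay above every EV library (15.6% of all genes), and for 1 every TTP library lay below (16.2% of all genes). Scaling each library to its reads outside the members turned RPL15 to a rise, ended the call of RPL23A and raised the number of higher members to 76. That scaling also raised the split of calls over all genes from 5261 higher and 5144 lower to 6720 higher and 3816 lower.

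A stricter count asked that each of the 4 pairings of a TTP clone with an EV clone pass with the same sign. It was met by 50 members that were higher (19% of all genes) and by RPL23A, which was lower (19.5% of all genes), 31 RPL and 19 RPS genes being among the higher. The other 26 genes were lost mainly against EV_B: TTP_E11 had 74 members higher than EV_A (31.8% of all genes) but 59 higher than EV_B (29.9%), and TTP_H3 had 75 higher than EV_A (32%) but 51 higher than EV_B (29.8%). The median changes were 0.36 and 0.32 against EV_A and 0.15 and 0.11 against EV_B. Contrasts with the same clone share its libraries, and their values are given here side by side. The stricter count depended on the scaling. It was met by 61 members with upper-quartile scaling and by 72 with library totals taken without the members, all of them higher.

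**Figure D2:**
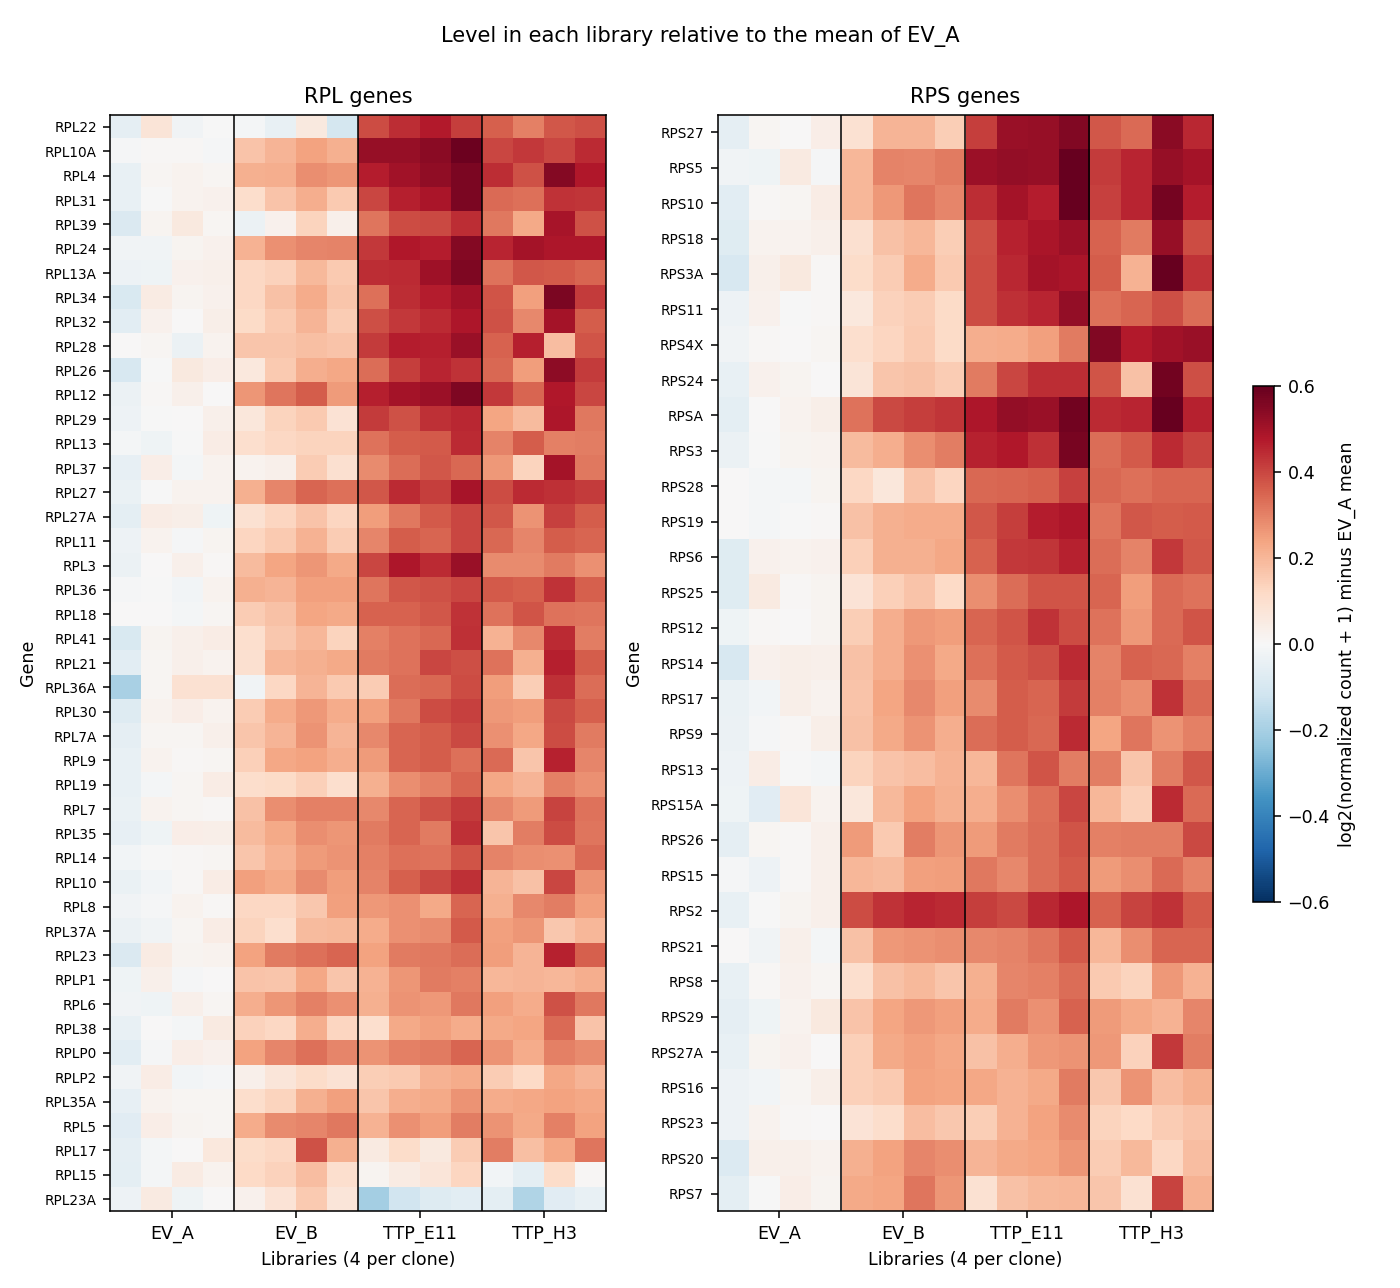
Log2 normalized counts minus the EV_A mean of the gene for 76 members (rows, RPL and RPS genes in separate panels, ordered by the change between TTP and EV) in the 16 libraries (columns). Most rows step up from EV_A to EV_B and again to the TTP clones, and RPL23A and RPL15 do not.

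Among the proteins of the large subunit, the stalk proteins rose between the arms by less than the RPL median. So did other RPL genes, among them RPL5 (0.12) and RPL38 (0.14). RPLP0, the base of the stalk that recruits translation factors, was at 33082 ± 1037 in EV_A and 40441 ± 1041 in EV_B, and 40929.5 ± 948 in TTP_E11 and 39862 ± 971 in TTP_H3, and its change between TTP and EV was 0.14 ± 0.02 (SE, adjusted p = 1.08e-07). Its EV_A libraries lay apart below the rest, and the other clones overlapped: against EV_B the change was 0.017 for TTP_E11 (adjusted p = 0.612) and −0.021 for TTP_H3 (adjusted p = 0.545). RPLP1, which binds RPLP0 with RPLP2, was at 10259.7 in EV_A and 11656 in EV_B, and 12395 in TTP_E11 and 11828 in TTP_H3 on average, a change of 0.15 ± 0.02 (SE, adjusted p = 1.16e-07). Its arms overlapped, and against EV_B the change was 0.088 for TTP_E11 (adjusted p = 0.00881) and 0.021 for TTP_H3 (adjusted p = 0.546). RPLP2 was at 8154 in EV_A and 8593 in EV_B, and 9263 in TTP_E11 and 9219.5 in TTP_H3. Its change was 0.14 ± 0.022 (SE, adjusted p = 7.77e-07), its TTP libraries all lay above its EV libraries, and it passed in all 4 pairings.

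RPL3, which lies close to the peptidyl transferase centre, had normalized counts of 17022, 17473, 17825 and 17531 in EV_A and 19897, 20548, 21009 and 20411 in EV_B, against 23020.0, 24453, 23805 and 25008 in TTP_E11 and 21229, 21256, 21703 and 21136 in TTP_H3. The TTP libraries all lay above the EV libraries, with a change of 0.26 ± 0.02 (SE, adjusted p = 2.18e-13), and TTP_E11 lay above TTP_H3. Against EV_B it passed in TTP_E11, with 0.23, and not in TTP_H3, with 0.06 (adjusted p = 0.0663). RPL5 and RPL11, which bind the smallest ribosomal RNA and are known to bind MDM2 together, differed in pattern. RPL5 was at 13342 ± 432 in EV_A and 16189 ± 436 in EV_B, and 15988 ± 454 in TTP_E11 and 15978 ± 376 in TTP_H3. Its rise over EV_A was as large in EV_B as in the TTP clones, and against EV_B the changes were −0.018 (adjusted p = 0.628) and −0.019 (adjusted p = 0.615). RPL11 was at 10347 ± 179.7 in EV_A and 11585 ± 265 in EV_B, and 13204 ± 396 in TTP_E11 and 13067 ± 272 in TTP_H3, and it passed in all 4 pairings, with 0.26 ± 0.021 (SE, adjusted p = 4.29e-13) between the arms.

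RPL10, which is needed for late maturation and the joining of the subunits, was at 8934 ± 228 in EV_A and 10633 ± 176 in EV_B, and 11574 ± 479 in TTP_E11 and 10733 ± 751 in TTP_H3. TTP_E11 was higher than EV_B by 0.12 (adjusted p = 0.00574) and TTP_H3 by 0.011 (adjusted p = 0.819), and the libraries of TTP_H3 and EV_B overlapped. RPL13A, a member of the large subunit that is also known in translational silencing outside the ribosome, was at 29843 ± 680.1 in EV_A and 33213 ± 706 in EV_B, and 41872 ± 1642 in TTP_E11 and 38163 ± 582 in TTP_H3, a change of 0.34 ± 0.02 (SE, adjusted p = 1.87e-16) with no overlap of the arms. RPL38, a peripheral protein known for its part in the translation of Hox mRNAs in mice, was at 4221 in EV_A and 4694 in EV_B, and 4849.7 in TTP_E11 and 4999.7 in TTP_H3, with 0.14 ± 0.027 (SE, adjusted p = 1.31e-05) between the arms and 3 of 4 pairings passing. RPL41, which encodes a very short basic peptide, was at 3197 in EV_A and 3542 in EV_B, and 4082 in TTP_E11 and 3976 in TTP_H3, a change of 0.26 ± 0.03 (SE, adjusted p = 2.99e-09), and its TTP libraries all lay above its EV libraries.

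In the small subunit, all members named by role were higher in TTP than in EV. RPS3, at the mRNA entry site and also known in DNA repair, had normalized counts of 18978, 19425, 19656 and 19700.3 in EV_A and 22195, 22618, 23554 and 24048 in EV_B, against 26806, 27153, 26323 and 28817 in TTP_E11 and 24545, 25050.3, 26474 and 25738 in TTP_H3. The arms and the EV clones did not overlap, while the TTP clones did, and the change was 0.31 ± 0.022 (SE, adjusted p = 3.03e-14). RPS6, the classic substrate of the S6 kinases downstream of mTORC1, was at 13093 ± 433 in EV_A and 15048 ± 407 in EV_B, and 17481 ± 553 in TTP_E11 and 16764 ± 619 in TTP_H3, a change of 0.29 ± 0.023 (SE, adjusted p = 5.11e-13). RPS14, a platform protein, was at 9591 in EV_A and 11192 in EV_B, and 12495 in TTP_E11 and 12001 in TTP_H3, with 0.24 ± 0.023 (SE, adjusted p = 4.64e-11), and RPS19, the gene most often mutated in Diamond-Blackfan anaemia, was at 11402 in EV_A and 13179 in EV_B, and 15435 in TTP_E11 and 14593 in TTP_H3, with 0.29 ± 0.02 (SE, adjusted p = 1.61e-14). Both kept the arms apart and passed in all 4 pairings.

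RPS25, known for its need in translation from viral internal ribosome entry sites, was at 9707 in EV_A and 10606 in EV_B, and 12311 in TTP_E11 and 12087 in TTP_H3, a change of 0.27 ± 0.023 (SE, adjusted p = 4.25e-12). RPS28, a short protein close to the mRNA exit site, was at 5305 ± 50.7 in EV_A and 5778 ± 166 in EV_B, and 6829.8 ± 148 in TTP_E11 and 6732 ± 38.5 in TTP_H3, a change of 0.29 ± 0.021 (SE, adjusted p = 4.51e-14). The arms did not overlap for either gene. RPS27A, whose product is made as a fusion with ubiquitin, was at 9039 in EV_A and 10478 in EV_B, and 10616 in TTP_E11 and 11025 in TTP_H3, and RPS29, a short zinc-binding protein of the head, at 3654 in EV_A and 4278 in EV_B, and 4469 in TTP_E11 and 4333 in TTP_H3. Each passed between the arms, with 0.15 and 0.15, and neither passed against EV_B in either TTP clone. RPS29 overlaps another gene on the same strand in GENCODE 29, and reads there may be split by the counting.

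The members with the largest change in their weakest pairing were RPL22, RPS27, RPL39, RPS18 and RPS3A, all with a C-led pyrimidine run at the start as printed above. RPL22, a peripheral protein of the large subunit whose loss mice survive, lies on chromosome 1, 6185020 to 6209389, minus strand (GRCh38). It had normalized counts of 4969, 5449.9, 5090.2 and 5149 in EV_A and 5121, 5013, 5373 and 4800.4 in EV_B, against 6768, 7019, 7175 and 6880.4 in TTP_E11 and 6621, 6370.2, 6687 and 6738 in TTP_H3. The EV clones overlapped, at 5164 ± 204 and 5077 ± 238, and all TTP libraries lay above them. Its change was 0.41 ± 0.025 (SE, adjusted p = 9.37e-16), and it was the only member with a lower mean in EV_B than in EV_A, a change of −0.025 (adjusted p = 0.617).

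RPS27, a zinc-binding protein of the small subunit, had normalized counts of 5550.5, 5816, 5783 and 5919 in EV_A and 6143, 6636, 6649 and 6396 in EV_B, against 7675, 8251, 8295 and 8470.3 in TTP_E11 and 7473, 7288, 8398 and 7884 in TTP_H3. Each TTP library lay above each EV library, a change of 0.38 ± 0.027 (SE, adjusted p = 7.53e-14). RPL39, which lines the exit tunnel of the large subunit, was at 2342 ± 99.2 in EV_A and 2407 ± 121 in EV_B, and 3066 ± 106 in TTP_E11 and 2997 ± 235 in TTP_H3, a change of 0.35 ± 0.033 (SE, adjusted p = 7.15e-11) with no overlap of the arms. RPS18, a head protein, was at 26157 ± 887 in EV_A and 29118 ± 906 in EV_B, and 36048 ± 1363 in TTP_E11 and 34449 ± 2189.6 in TTP_H3, a change of 0.35 ± 0.026 (SE, adjusted p = 2.74e-12), also without overlap. RPS3A, at the mRNA exit side, was at 11804 ± 545 in EV_A and 13182 ± 432 in EV_B, and 16214 ± 527 in TTP_E11 and 15653 ± 1768 in TTP_H3, a change of 0.35 ± 0.045 (SE, adjusted p = 4.6e-06). Here the arms overlapped.

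Only 4 members departed from the rise between the arms, and each is set out here. RPL23A, which sits at the tunnel exit where nascent chain factors dock, lies on chromosome 17, 28719393 to 28724359, plus strand. It had normalized counts of 8846, 9380.2, 8878 and 9049 in EV_A and 9207, 9556, 10089 and 9507 in EV_B, against 7850.1, 8348, 8551 and 8653 in TTP_E11 and 8674, 7968, 8621 and 8763 in TTP_H3. The TTP libraries all lay below the EV libraries, a change of −0.14 ± 0.025 (SE, adjusted p = 6.17e-06), and all 4 pairings passed as lower. They did not all pass with upper-quartile scaling, nor without EV_A replicate 2, EV_A replicate 4 or TTP_H3 replicate 2. The call between the arms ended (−0.046, adjusted p = 0.0972) when libraries were scaled to their reads outside the members. RPL23A also has the most pseudogene copies in GENCODE 29 of the members, 91. The 11 members with 30 or more copies, RPL23A among them, had a median change of 0.22 between the arms. Whether reads shared with near-identical copies bear on the level of RPL23A was not tested.

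RPL15, a core protein of the large subunit, had normalized counts of 14625, 15079, 15756 and 15462 in EV_A and 16548, 16778, 17335 and 16304 in EV_B, against 15397, 15749, 16024 and 16659.5 in TTP_E11 and 15074, 14639, 16442 and 15279.8 in TTP_H3. EV_B was the highest clone and the arms overlapped, with −0.029 ± 0.024 (SE, adjusted p = 0.276) between them. TTP_H3 was lower than EV_B, with a change of −0.13 (adjusted p = 0.0017). Scaled to the reads outside the members, the change between the arms was 0.069 with an adjusted p of 0.00896, the opposite direction. Without EV_B replicate 4 and TTP_H3 replicate 3 it passed as lower (−0.052, adjusted p = 0.0111). RPS7, which is also known to bind MDM2, had normalized counts of 7848, 8161, 8395 and 8255 in EV_A and 9564, 9619.8, 10206 and 9802 in EV_B, against 8701, 9226, 9335 and 9362 in TTP_E11 and 9175, 8706, 10804 and 9445 in TTP_H3, and its change was 0.061 ± 0.032 (SE, adjusted p = 0.1) with overlap of the arms. RPL17, at the exit tunnel, had few counts for a member, 1135 ± 38.7 in EV_A and 1314 ± 118 in EV_B, and 1211 ± 39.2 in TTP_E11 and 1359 ± 61.4 in TTP_H3, and changed by 0.073 ± 0.035 (SE, adjusted p = 0.0678). It passed as higher with TMM scaling (0.080, adjusted p = 0.0469) and with upper-quartile scaling (0.11, adjusted p = 0.00499). RPL17 overlaps another gene on the same strand in GENCODE 29, so its level rests on how shared reads were counted.

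**Figure D3:**
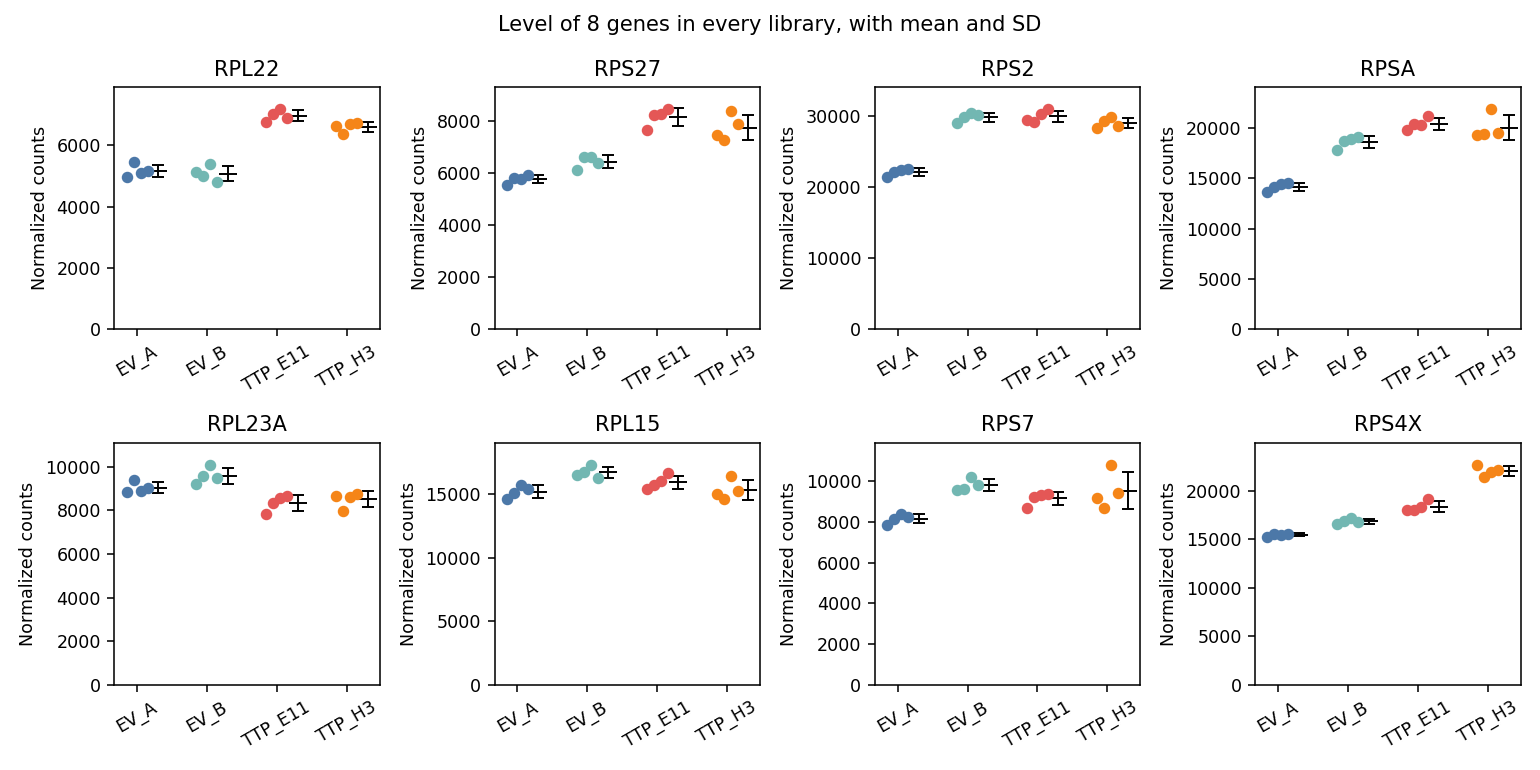
Normalized counts (vertical axes, starting at 0) of RPL22, RPS27, RPS2, RPSA, RPL23A, RPL15, RPS7 and RPS4X in each library, with the mean ± SD of each clone (n = 4). RPL22 steps up between the arms alone, RPS2 steps up between EV_A and the other clones, RPL23A steps down in the TTP clones and RPS4X is highest in TTP_H3.

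The EV clones also differed from each other in most members, although neither carried TTP. EV_B was higher than EV_A for 69 of 77 members, where 20.2% of all genes were called higher, and lower for 0, where 16.6% of all genes were called lower. The median change was 0.19 (14.4%), against 0.0051 over all genes. No overlap between the 4 libraries of each clone was seen for 70 members, all higher in EV_B, where 19.9% of all genes were higher without overlap, and 0 members were lower without overlap, where 16.3% of all genes were. The difference between the arms, with its median of 0.24, uses these same EV libraries.

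RPS2, at the mRNA entry site, led this shift. It lies on chromosome 16, 1962052 to 1964860, minus strand and had normalized counts of 21381, 22054, 22293 and 22555 in EV_A and 28912, 29779.6, 30314 and 30121 in EV_B, against 29431, 29045, 30194 and 30887 in TTP_E11 and 28228, 29244, 29800.4 and 28484 in TTP_H3. All other clones lay above EV_A and overlapped one another, and EV_B was higher than EV_A by 0.43 ± 0.028 (SE, adjusted p = 2.36e-13). Against EV_B, the changes of RPS2 were 0.005 in TTP_E11 (adjusted p = 0.89) and −0.042 in TTP_H3 (adjusted p = 0.201).

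RPSA, known outside the ribosome as a laminin receptor precursor, had normalized counts of 13613, 14175, 14380.3 and 14491 in EV_A and 17777, 18664, 18903 and 19066 in EV_B, against 19798, 20377, 20263 and 21149 in TTP_E11 and 19306, 19416, 21854 and 19503 in TTP_H3. EV_B was higher than EV_A by 0.39 ± 0.034 (SE, adjusted p = 1.92e-10), and the TTP libraries all lay above the EV libraries. RPL23, which like RPL5 and RPL11 is known to bind MDM2, was at 8448 ± 334 in EV_A and 10466 ± 336 in EV_B, and 10405 ± 301 in TTP_E11 and 10555 ± 861 in TTP_H3, a shift of 0.31 ± 0.043 (SE, adjusted p = 3.31e-06) between the EV clones. Its changes against EV_B were −0.0083 and 0.0092 (adjusted p = 0.883 and 0.869). RPL12, near the base of the stalk, shifted by 0.30 ± 0.031 (SE, adjusted p = 6.63e-09), and RPL27 by 0.30 ± 0.031 (SE, adjusted p = 7.91e-09). Both rose again in the TTP clones, by 0.21 and 0.14 in TTP_E11 over EV_B.

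The smallest shifts between the EV clones were those of RPL22, RPL39, RPL37, RPLP2 and RPL23A. Their changes were −0.025, 0.039, 0.075, 0.076 and 0.085, and none passed, though RPLP2 did with DESeq2 (adjusted p = 0.0491). RPL37, a zinc-binding protein of the large subunit, was at 8575 ± 233 in EV_A and 9036 ± 387 in EV_B, and 10813 ± 265 in TTP_E11 and 10619 ± 1140.0 in TTP_H3, with 0.28 ± 0.039 (SE, adjusted p = 3.75e-06) between the arms. The 4 of these genes other than RPL23A were higher in both TTP clones than in both EV clones, so the EV shift and the difference between the arms did not run in step for every gene. RPL6, a large-subunit protein, showed the reverse. It was at 15549.7 ± 296 in EV_A and 18680.2 ± 430.3 in EV_B, and 18682 ± 567 in TTP_E11 and 19047 ± 940.0 in TTP_H3, a shift of 0.26 ± 0.032 (SE, adjusted p = 7.96e-08) between the EV clones, and the changes against EV_B were −6.6e-05 and 0.027 (adjusted p = 0.999 and 0.482).

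**Figure D4:**
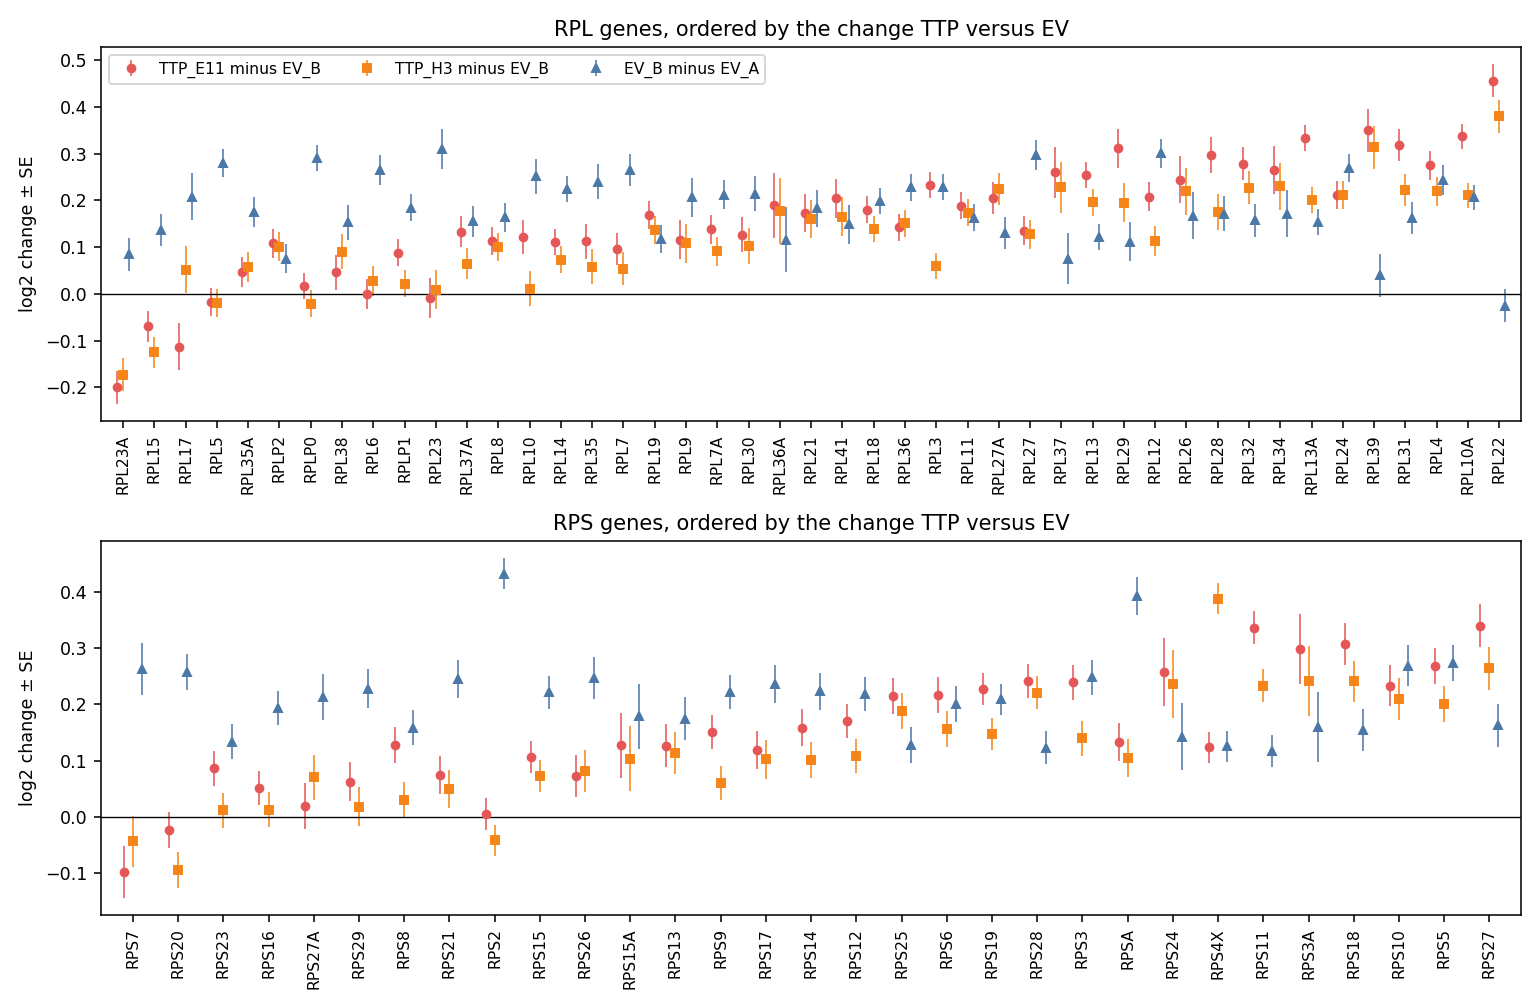
Log2 change ± SE of 76 members in TTP_E11 minus EV_B, TTP_H3 minus EV_B and EV_B minus EV_A. RPL22 has the highest change in TTP_E11 minus EV_B and the lowest in EV_B minus EV_A, and RPS2 has the highest in EV_B minus EV_A.

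Set against EV_B, the EV clone with the higher levels, most members were still higher in each TTP clone. In TTP_E11, 59 members were higher and 1 was lower (29.5% of all genes), namely RPL23A at −0.20. In TTP_H3, 51 were higher and 3 were lower (29.7% of all genes), namely RPL23A at −0.17, RPL15 at −0.13 and RPS20 at −0.094 (adjusted p = 0.011). RPS20, a head protein named here after its value was seen, was at 6008 in EV_A and 7181 in EV_B, and 7062 in TTP_E11 and 6726 in TTP_H3. Against EV_A, RPL23A was the 1 member lower in TTP_E11 (31.3% of all genes) and the 1 lower in TTP_H3 (31.9%).

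The TTP clones differed little from each other. TTP_H3 was higher than TTP_E11 for 2 members (6.35% of all genes) and lower for 11 (5.32% of all genes), with a median of −0.038. RPS4X, a small-subunit protein encoded on chromosome X, 72255679 to 72277300, minus strand, had normalized counts of 15213, 15492, 15462 and 15576 in EV_A and 16536, 16872, 17211 and 16733 in EV_B, against 17959.6, 18004, 18291 and 19147 in TTP_E11 and 22662, 21441, 21894 and 22126 in TTP_H3. All 4 TTP_H3 libraries lay above every other library, and TTP_H3 was higher than TTP_E11 by 0.26 ± 0.028 (SE, adjusted p = 2.26e-08). RPL17 was also higher in TTP_H3, by 0.16 ± 0.05 (SE, adjusted p = 0.0284).

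Among the lower members, RPL3 had the largest difference, −0.17 ± 0.028 (SE, adjusted p = 6.27e-05). RPL13A differed by −0.13 (adjusted p = 0.00141), RPL10A by −0.13 (adjusted p = 0.00168), RPL28 by −0.12 (adjusted p = 0.0335) and RPL10 by −0.11 (adjusted p = 0.0493). Those named here are proteins of the large subunit. Over all members, 7 of 46 RPL and 4 of 31 RPS genes were lower (5.32% of all genes). RPL10 did not pass with edgeR (adjusted p = 0.0557) or DESeq2 (adjusted p = 0.0712), and RPL28 did not without EV_B replicate 4 and TTP_H3 replicate 3 (adjusted p = 0.052). The count of 13 depended on single libraries: it was 21 without TTP_H3 replicate 3, 5 without TTP_E11 replicate 4 or TTP_H3 replicate 1, and 6 without TTP_E11 replicate 2, TTP_E11 replicate 3 or TTP_H3 replicate 4. It was 27 without EV_B replicate 4 and TTP_H3 replicate 3 together, and TTP_H3 replicate 3 was the library with the highest shares of mitochondrially encoded and ribosomal protein reads in its clone.

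The median changes of the subunits were set side by side. Between the arms the median change was 0.25 for RPL and 0.24 for RPS genes, a difference of 0.0081. No test is given for this difference of medians. Its sign turned to −0.0027 without TTP_H3 replicate 3. Between the EV clones the medians were 0.18 for RPL and 0.21 for RPS, a difference of −0.034. Against EV_B the differences were 0.038 in TTP_E11 and 0.016 in TTP_H3.

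The mean log2 level of RPL minus that of RPS genes, taken within each library, was −0.0618 to −0.0530 in EV_A. It was −0.0931 to −0.0788 in EV_B, −0.0824 to −0.0762 in TTP_E11 and −0.0911 to −0.0775 in TTP_H3. EV_A thus stood apart from the other clones, which overlapped, by a difference larger than the SD within clones of 0.0052. As a share of the reads on members, RPL genes held 60.6% ± 0.0625 in EV_A and 60.3% ± 0.133 in EV_B, and 60.2% ± 0.0405 in TTP_E11 and 59.9% ± 0.179 in TTP_H3. No test is given for these scores over the members.

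The changes were set beside the annotated start. The 42 members with a C-led run at the start were all higher between the arms (35.4% of all genes), with a median of 0.26. The 20 without it included 17 higher members, with a median of 0.21. Against EV_B, 37 of the 42 were higher in TTP_E11 (29.9% of all genes), with a median of 0.20. In TTP_H3, 33 of the 42 were higher (29.8% of all genes), with a median of 0.15. Of the 20, 13 and 11 were higher (medians 0.12 and 0.095), and 1 was lower in TTP_H3 (29.7% of all genes), RPL15. Between the EV clones the order was the other way, with 36 of the 42 higher (median 0.17) and 20 of the 20 (median 0.21). There, 20.2% of all genes were called higher. Outside the members, 494 listed genes with a promoter window had such a run. Of these, 207 were higher (35.4% of all genes) and 164 lower (34.6%) between the arms (median 0.041). Between the EV clones, 152 of them were higher (20.2% of all genes) and 75 lower (16.6%), with a median of 0.048. The differences between these medians were not tested.

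The members differ from other genes in length and in their 3′ ends. Their median coding length was 456 bases, against 1392 for other protein-coding genes. Of the other genes with a coding length under 500 bases, 1050 in number, the median changes were −0.025 between the arms and 0.063 between the EV clones, against 0.26 and 0.17 for the 47 members of that length. The shortest annotated 3′ UTR had a median of 44 bases for members and 329 bases for other genes. It held the pentamer ATTTA, the core of AU-rich elements, in 11 of 77 members (14.3%) and in 45.9% of 12467 other genes, and the heptamer TATTTAT in RPL37, RPL39 and RPS4X (3.90%), against 17.1%. Among 2308 other genes with a 3′ UTR of at most 100 bases and no ATTTA, 917 were higher (35.4% of all genes) and 804 lower (34.6%) between the arms, with a median of 0.020.

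Other genes at the members' levels were more often lower than higher between the arms. The members' mean levels ran from 1131 to 38579 normalized counts, and 3908 other genes lay in that range. Of these, 31.7% were higher and 51.4% lower between the arms, with a median of −0.079, and 36.3% were higher and 18.3% lower between the EV clones. Against EV_B, 23.6% were higher and 50.4% lower in TTP_E11, and 24.9% were higher and 49.8% lower in TTP_H3. The members' median lay above 73.4% of all genes for the arms and above 81.7% for the EV clones.

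The spread within a clone differed between genes. The median SD of log2 levels over the members was 0.033 in EV_A and 0.042 in EV_B, and 0.048 in TTP_E11 and 0.055 in TTP_H3. The highest SD was 0.14 in EV_A (RPL36A), 0.13 in EV_B (RPL17), 0.11 in TTP_E11 (RPL36A) and 0.17 in TTP_H3 (RPS24). Per kilobase of coding length, RPL17 (2273 normalized counts) and RPL36A (2655) had the lowest levels and RPS18 (68954), RPL13A (58740) and RPL35 (52119) the highest. RPL17 and RPL36A each overlap another named gene on the same strand in GENCODE 29, as do RPL36, RPS10, RPS13 and RPS29. On the opposite strand 29 members overlap a gene, and 24 members hold a snoRNA. Since the labels do not state whether strand was kept, reads of genes on opposite strands cannot be told apart.

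Processed copies of these genes are common, with 1133 pseudogenes named for members in GENCODE 29 and a median of 10 per gene. The median change between the arms was 0.24 for the 38 members with under 10 copies, 0.25 for the 28 with 10 to 29 and 0.22 for the 11 with 30 or more. The table listed 55 such pseudogenes, of which 14 were higher (35.4% of all genes) and 4 lower (34.6%) between the arms. They held 0.0232% of the reads in EV_A and 0.0300% in TTP_E11, so that few reads had been assigned to them.

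FAU and the paralogs were read next to the members. FAU, a ubiquitin-like protein fused to a small-subunit protein, was at 4752 ± 157 in EV_A and 5559.8 ± 267 in EV_B, and 5981 ± 126 in TTP_E11 and 6235 ± 324 in TTP_H3, and it passed in all 4 pairings, with 0.25 ± 0.026 (SE, adjusted p = 5.12e-10). It was higher in EV_B than in EV_A by 0.23.

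Most listed paralogs were lower in TTP than in EV. Of 10 looked for, 6 were listed, and 1 was higher (35.4% of all genes) and 5 were lower (34.6%) between the arms. In all 4 pairings, 0 were higher (19% of all genes) and only 1, RPS27L, was lower (19.5%). RPL22L1, the paralog of RPL22, had normalized counts of 339, 392, 349 and 375 in EV_A and 494, 524, 548 and 639 in EV_B, against 456, 503, 498 and 499.6 in TTP_E11 and 493, 439, 563 and 484 in TTP_H3. EV_B was the highest clone, 0.60 ± 0.075 (SE, adjusted p = 1.99e-07) above EV_A, and the change between the arms was 0.14 ± 0.053 (SE, adjusted p = 0.0225), a call lost in a model of 2 groups (adjusted p = 0.320). RPS27L, the paralog of RPS27, was at 859 ± 23 in EV_A and 834 ± 35.6 in EV_B, and 681 ± 28.8 in TTP_E11 and 659 ± 50.2 in TTP_H3, a change of −0.34 ± 0.038 (SE, adjusted p = 1.71e-09), lower in all 4 pairings and opposite to RPS27. RPL26L1 changed by −0.22 ± 0.033 (SE, adjusted p = 5.02e-07), RPL36AL by −0.16 ± 0.026 (SE, adjusted p = 2.85e-06) and RPL39L by −0.16 ± 0.053 (SE, adjusted p = 0.00689). RPL7L1 changed by −0.062 ± 0.022 (SE, adjusted p = 0.0122), a call lost in a model of 2 groups (adjusted p = 0.244) and a direction that turned to 0.036 when libraries were scaled to their reads outside the members. Under that scaling RPL39L did not pass (adjusted p = 0.264).

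Other genes of the pathway were counted from lists chosen with earlier results of these data known. Of 19 further mRNAs known for a TOP tract, 14 were higher (35.4% of all genes) and 1 lower (34.6%) between the arms (median 0.14). Between the EV clones 14 were higher (20.2% of all genes) and 0 lower (16.6%), and 5 were higher in all 4 pairings (19% of all genes). EIF3F, a subunit of the initiation factor eIF3, was at 3992 ± 74.7 in EV_A and 4581 ± 138 in EV_B, and 5929 ± 149.6 in TTP_E11 and 5533 ± 200.0 in TTP_H3, a change of 0.42 ± 0.023 (SE, adjusted p = 6.94e-17), and EIF3H of the same complex changed by 0.33 ± 0.025 (SE, adjusted p = 1.05e-13). VIM, the intermediate filament vimentin, was the lower gene, at 32735 in EV_A and 32200.5 in EV_B, and 23174 in TTP_E11 and 22150.4 in TTP_H3, a change of −0.52 ± 0.023 (SE, adjusted p = 2.94e-19). EEF1G changed by 0.74 ± 0.21 (SE, adjusted p = 0.00248) but stood at only 9.7 in EV_A and 12.2 in EV_B, and 18.3 in TTP_E11 and 18.4 in TTP_H3, so its value rests on few reads.

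Genes of ribosome assembly were mostly higher in EV_B than in EV_A. Of 56 listed, 46 were higher between the EV clones (20.2% of all genes) and 0 lower (16.6%), with a median of 0.25. Between the arms 37 were higher (35.4% of all genes) and 6 lower (34.6%), with a median of 0.14. Against EV_B, 22 were higher (29.9% of all genes) and 15 lower (29.5%) in TTP_E11, and 24 were higher (29.8%) and 13 lower (29.7%) in TTP_H3. POLR1C, a subunit shared by RNA polymerases I and III, was at 853 ± 20.9 in EV_A and 933 ± 80.1 in EV_B, and 1799 ± 79.1 in TTP_E11 and 1941 ± 143 in TTP_H3, a change of 1.07 ± 0.038 (SE, adjusted p = 1.67e-21). SBDS, which acts in the release of EIF6 from the large subunit, was at 2268 ± 84.1 in EV_A and 2642 ± 80.1 in EV_B, and 1412 ± 19.4 in TTP_E11 and 1466 ± 137 in TTP_H3, a change of −0.77 ± 0.033 (SE, adjusted p = 1.25e-19). RRP12 and NOP16 of the processing machinery changed by 0.73 and 0.59.

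Of 12 chaperones and importers of ribosomal proteins, 9 were higher (35.4% of all genes) and 2 lower (34.6%) between the arms. Between the EV clones 11 were higher (20.2% of all genes) and 0 lower (16.6%). GRWD1, a chaperone of RPL3, was at 1681 ± 76.8 in EV_A and 2113 ± 121 in EV_B, and 2575 ± 99.4 in TTP_E11 and 2926 ± 123 in TTP_H3, a change of 0.54 ± 0.03 (SE, adjusted p = 8.78e-17), and TSR2, which escorts RPS26, was at 1459 in EV_A and 1599 in EV_B, and 1778 in TTP_E11 and 1887 in TTP_H3, a change of 0.26 ± 0.026 (SE, adjusted p = 7.79e-11). IPO4 and PDCD2L changed by 0.42 and 0.26 (adjusted p = 0.000207 and 0.00388). Of 21 regulators of TOP mRNAs, 20 were listed, 7 higher and 9 lower, where 35.4% of all genes were called higher and 34.6% lower. RHEB, the activator of mTORC1, was at 5611 ± 164 in EV_A and 6017 ± 55.5 in EV_B, and 2868 ± 83 in TTP_E11 and 2869.6 ± 149.8 in TTP_H3, a change of −1.02 ± 0.025 (SE, adjusted p = 6.83e-26) in which the arms did not overlap. DEPTOR, an inhibitor within mTOR complexes, was at 13.3 ± 1.95 in EV_A and 15.4 ± 5.57 in EV_B, and 66.6 ± 6.24 in TTP_E11 and 49.7 ± 11.8 in TTP_H3, a change of 1.95 ± 0.16 (SE, adjusted p = 2.07e-12) at low counts. LARP4 changed by −0.39 and TSC1, which restrains RHEB, by 0.36 (adjusted p = 1.16e-12 and 1.57e-13).

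Of 8 genes of the response to free ribosomal proteins, 7 were listed, 3 higher (35.4% of all genes) and 3 lower (34.6%) between the arms. CDKN1A, the cell cycle inhibitor p21, was at 4185 ± 146 in EV_A and 2990.1 ± 425 in EV_B, and 1706 ± 39.9 in TTP_E11 and 1872 ± 178 in TTP_H3, a change of −0.98 ± 0.064 (SE, adjusted p = 4.91e-09). NOP53, a nucleolar factor of large-subunit assembly, changed by 0.66 ± 0.027 (SE, adjusted p = 1.66e-20). Of 78 mitochondrial ribosomal protein genes, 38 were higher (35.4% of all genes) and 19 lower (34.6%) between the arms (median 0.071). Between the EV clones 42 were higher (20.2% of all genes) and 0 lower (16.6%), with a median of 0.15. In TTP_E11 against EV_B, 12 were higher (29.9% of all genes) and 26 lower (29.5%), with a median of −0.043. The balance was the other way in TTP_H3 against EV_B, with 27 higher (29.8%) and 18 lower (29.7%) and a median of 0.026. MRPS2, MRPS26 and MRPL10 changed by 0.55, 0.49 and 0.44, and MRPS36 by −0.58.

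**Figure D5:**
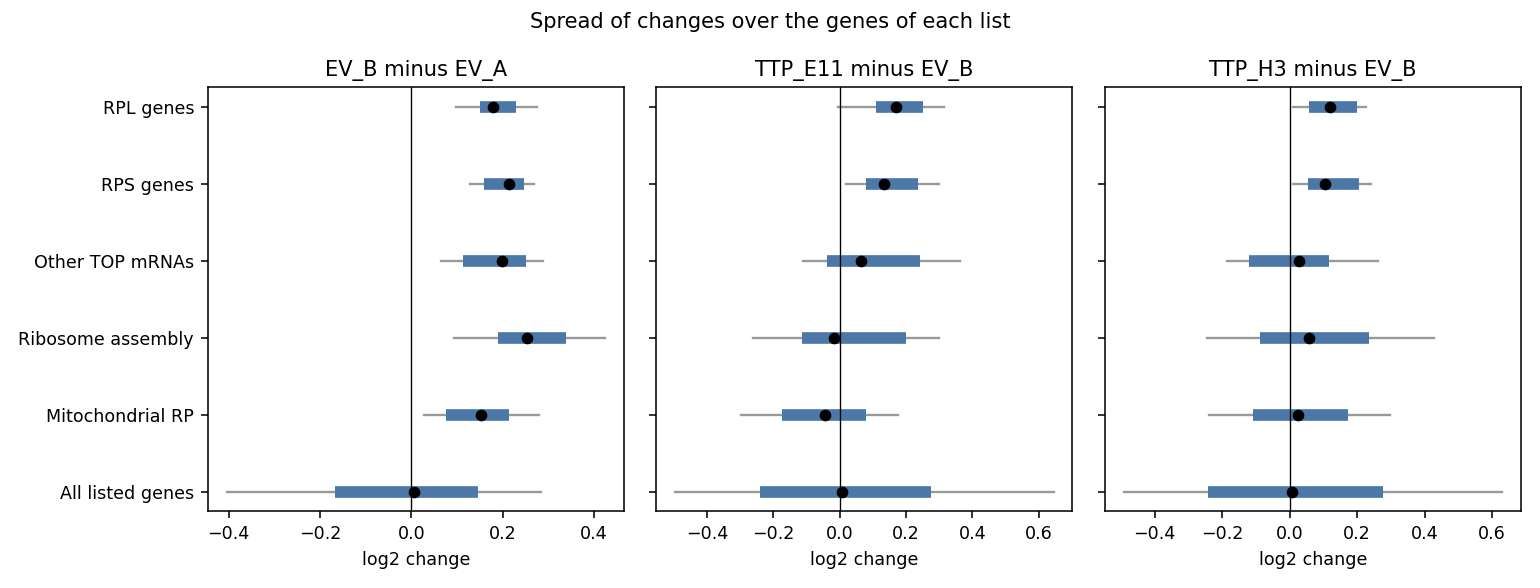
Log2 change of the RPL and RPS genes, the other mRNAs known for a TOP tract, the genes of ribosome assembly, the mitochondrial ribosomal proteins and all listed genes in EV_B minus EV_A, TTP_E11 minus EV_B and TTP_H3 minus EV_B. Dots are medians, thick bars the quartiles and thin bars the range from the 10th to the 90th percentile. The medians of the lists lie above that of all genes in EV_B minus EV_A, and RPL and RPS genes have the highest medians in TTP_E11 minus EV_B.

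Over the 16 libraries, the pattern of the members was shared by some other genes. Pearson's r with the mean log2 level of the members, given as a description over 16 libraries that share clones and scaling, had a median of 0.953 among members and −0.010 over all genes. The lowest members were RPL23A (−0.404), RPL15 (0.323), RPL17 (0.584) and RPS7 (0.690). Outside the members the closest were RACK1 (0.986), a scaffold protein bound to the small subunit, NT5C3B (0.982), a nucleotidase, FBL (0.981), the rRNA methyltransferase of the nucleolus, TUFM (0.978), the mitochondrial elongation factor, and PHB (0.978), prohibitin. In the authors' deposited table, 71 members were higher and 1 lower in TTP than in EV, with a median log2 fold change of 0.24.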

How the data were processed

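RNA of 16 cultures from 4 clones was sequenced with a NEBNext Ultra II kit, per the labels' protocols, which do not state strand. GRCh38, DESeq2, featureCounts, Subread 1.5.2, STAR 2.5.2b and Trimmomatic 0.36 appear in the submitters' processing notes without roles, and no source used here names the annotation. In the 1 table the authors deposited is a normalized signal per gene and library, here called normalized counts, that is, reads of a gene over 1 size factor per library, as the values show. Per the file headers it also holds the authors' log2 fold change and p-value for TTP against EV. All values came out as whole reads within 1e-06, a weaker check in TTP_H3 replicates 1 and 3, where 1 read was worth 1.009 and 0.9975. No pair of libraries was identical, and 26 genes without a name stayed in the fit. The smallest mean listed was 9.68, and genes below it are not analysed here.

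The main test was limma 3.58.1 (R 4.3.3, robust trend) on log2(normalized count + 1), with all 16 libraries in 1 fit of 4 clone groups and Benjamini-Hochberg adjustment over 14857 genes at a threshold of 0.05. This scale understates the fold change of a gene at few reads. Each TTP clone was also set against each EV clone. Tables were made with Python 3.11.15, numpy 2.4.6 and pandas 2.3.3, and the scripts were tested on simulated data. Recovered reads were tested with DESeq2 1.42.0 and edgeR 4.0.16 as alternatives, beside other scalings, pseudocounts of 0.1 and 5, a mean of at least 50, a model of 2 groups, a replicate block and leaving out libraries. Coordinates, lengths, overlaps and pseudogenes come from GENCODE 29, which held 14820 of the genes, and start windows from RefSeq (GRCh38.p14).

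The members and gene lists were chosen with earlier results of these data known. Members were named by role, by the 5 largest and 5 smallest changes, by a direction against the majority, and by the 8 largest differences between the TTP clones. In the other lists, at most 4 genes with the largest change between the arms were named. RPS7, RPS20, RPL15 and RPL17 were also named for departing from the others. Some genes that this rule reaches are not reported here by name, and the counts include them. A permutation test of the share of reads had been planned and is not given, since the share is a score over chosen members.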

Additional observations from a re-analysis of the deposited data

Results flagged for a closer look

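Among 268 sets of 4 libraries checked, 17 had a library far from the other 3, where chance alone gives about 1 in 20. Among the members, the normalized counts were 4913 for RPL38 in EV_B replicate 3 (others 4605 to 4646), 12057 for RPLP1 in EV_B replicate 3 (others 11496 to 11547) and 11933 for RPLP1 in TTP_H3 replicate 4 (others 11781 to 11805). The next were 8978 for RPS14 in EV_A replicate 1 (others 9758 to 9834), 24832 for RPS18 in EV_A replicate 1 (others 26536 to 26716) and 6675 for RPS28 in TTP_H3 replicate 2 (others 6745 to 6755). Further members gave 12443 for RPS6 in EV_A replicate 1 (others 13291 to 13324) and 21854 for RPSA in TTP_H3 replicate 3 (others 19306 to 19503). EV_A replicate 1, which stood below its clone for RPS14, RPS18 and RPS6, had the fewest reads of that clone. Outside the members, the counts were 2293 for GRWD1 in EV_B replicate 4 (others 2038 to 2075), 1382 for MRPS26 in TTP_E11 replicate 4 (others 1258 to 1278), 1306 for MRPS26 in TTP_H3 replicate 1 (others 1407 to 1423) and 371 for MRPS36 in EV_B replicate 3 (others 401 to 404). The other such values were 456 for RPL22L1 in TTP_E11 replicate 1 (others 498 to 503), 831 for RPL26L1 in TTP_H3 replicate 2 (others 906 to 919.7), 14757 for RPL7L1 in EV_B replicate 4 (others 13771 to 13856) and 12439 for RPL7L1 in TTP_E11 replicate 1 (others 12743 to 12801). The last was 638 for RPS27L in TTP_E11 replicate 1 (others 691 to 699).

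The effect relative to EV differed between the TTP clones for 13 named genes, by limma's contrast of TTP_H3 with TTP_E11 on the log2 scale. Several of these members had been named because they passed this same contrast, so the count is not a result about the named genes. Over all genes, 6.35% were called higher in TTP_H3 and 5.32% lower. It was larger in TTP_H3 by 0.16 for RPL17 (adjusted p = 0.0284) and 0.26 for RPS4X (adjusted p = 2.26e-08). It was smaller in TTP_H3, with −0.11 for RPL10 (adjusted p = 0.0493), −0.13 for RPL10A (adjusted p = 0.00168), −0.095 for RPL12 (adjusted p = 0.0444) and −0.13 for RPL13A (adjusted p = 0.00141). The other members with a smaller effect had −0.12 for RPL28 (adjusted p = 0.0335), −0.17 for RPL3 (adjusted p = 6.27e-05) and −0.10 for RPS3 (adjusted p = 0.0331). Outside the members the differences were −0.10 for EIF3F (adjusted p = 0.0436), 0.18 for GRWD1 (adjusted p = 0.00385), −0.25 for NOP53 (adjusted p = 2.36e-05) and 0.15 for RRP12 (adjusted p = 0.0423).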

How the results depend on the processing

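Counts of members called between the arms ran from 74 to 76 when 1 library was left out, those between the EV clones from 66 to 73, those in TTP_E11 against EV_B from 57 to 65, in TTP_H3 against EV_B from 44 to 57, and in all 4 pairings from 42 to 54. The count between the TTP clones ran from 5 to 21 and was 27 without EV_B replicate 4 and TTP_H3 replicate 3. The median between the arms ran from 0.231 to 0.255, was 0.339 with library totals taken without the members and 0.283 with upper-quartile scaling. These scalings also moved the median over all genes, to 0.098 and 0.042. The median between the EV clones ran from 0.174 to 0.214. RPL minus RPS between the arms ran from −0.0027 to 0.018 and was −0.0059 without EV_B replicate 4 and TTP_H3 replicate 3, and between the EV clones it ran from −0.039 to −0.026. The difference in share ran from 1.12 to 1.19 points and was 1.33 without the 100 genes with the most reads. With upper-quartile scaling, 68 members passed in TTP_E11 against EV_B, 64 in TTP_H3 against EV_B and 61 in all 4 pairings. With library totals taken without the members, these counts were 74, 73 and 72. Library totals without the members reversed RPL15 (0.069) and RPL7L1 (0.036). Of the values for single named genes, 3834 kept their direction and side of the threshold, 92 lost the threshold, 36 gained it and 2 reversed, and the cause was not tested. Same-numbered libraries of different clones correlated with r from −0.059 to 0.061 in 24 pairs, 0 of them over 0.1, and 4 correlated best with their own number. These correlations gave no sign of pairing by number. Replicate 1 nevertheless had both the fewest reads and the lowest share of ribosomal protein reads in EV_A, EV_B and TTP_E11, though not in TTP_H3. A batch shared by number was not tested. With the replicate block the counts were 75 between the arms, 72 between the EV clones, 15 between the TTP clones, 65 and 56 against EV_B and 52 in all 4 pairings, and the block left the medians (0.241 and 0.194) and the subunit differences (0.0081 and −0.034) as they were. DEPTOR and EEF1G, at few counts, are the least precise of the named genes.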
